A study of Mus musculus with 18 samples.

Results

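The substantia nigra of mice that received 6-hydroxydopamine (6-OHDA) together with TUG469 was compared with the nigra of mice that received phosphate-buffered saline (PBS), by RNA sequencing. The comparison took the 3 nigra libraries labelled TUG-1, TUG-2 and TUG-4 and the 3 nigra libraries labelled PBS1, PBS2 and PBS3, which are 6 of the 18 libraries of the study, and it covered every gene of the nigra table. Of 20897 genes in that table, 19686 passed a filter on low counts and were tested. Changes were computed from the raw read counts.

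All mice were wild-type C57BL6, and tissue was taken at 3 weeks. The group named TUG469 + 6-OHDA below received 4 µg of 6-OHDA by injection into the striatum and 10 mg/kg of TUG469 per day by intraperitoneal injection. A group that received 4 µg of 6-OHDA in the striatum and PBS in place of TUG469 contributed 3 further nigra libraries, numbered 2 to 4, which shared the estimate of the spread and are shown beside the comparison. The PBS group received PBS both in the striatum and in the peritoneum, so it differs from the TUG469 + 6-OHDA group by both agents at once, and the effects of the toxin and of the drug cannot be told apart in this comparison. The labels give neither age nor sex nor the hemisphere, and do not say that each library came from a separate mouse, so p-values measure the spread between these libraries, which may be technical in part.

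The substantia nigra holds dopamine neurons whose axons end in the striatum. 6-OHDA enters such neurons through the dopamine transporter and damages them by oxidation, and when it is placed in the striatum the damage starts at the axon endings. TUG469 is an agonist of GPR40, the free fatty acid receptor encoded by Ffar1, a G protein-coupled receptor best known for raising insulin secretion in pancreatic beta cells. The title of the study names the NLRP3 inflammasome, a protein complex of myeloid cells in which the sensor NLRP3 and the adaptor ASC (gene Pycard) activate caspase-1 (gene Casp1), which in turn matures interleukin-1 beta and interleukin-18. In bulk tissue such as this, fewer cells of a type and less RNA per cell cannot be told apart.

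Library totals were 57274260, 59378269 and 58923078 counts for TUG469 + 6-OHDA 1, 2 and 4, 51665747, 61933756 and 59098138 for 6-OHDA 2, 3 and 4, and 52060845, 53897542 and 57226863 for PBS 1, 2 and 3. Levels are given as CPM, read counts divided by library size with TMM factors (edgeR's scaling between libraries), and were compared between libraries only within a gene. The defining transcripts of nigral dopamine neurons (Th, Slc6a3, Slc18a2, Ddc, Aldh1a1, Pitx3 and Nr4a2) were counted in all 9 nigra libraries. So was every other gene of the nigra table, whose smallest count was 1 in each library, so this does not set these transcripts apart. Markers of neighbouring brain regions differed between libraries of the same group. Tph2, the enzyme that makes serotonin in neurons of the raphe nuclei, was at 93.7, 2.47 and 0.829 CPM in TUG469 + 6-OHDA 1, 2 and 4, at 120, 41.8 and 114 CPM in 6-OHDA 2, 3 and 4, and at 24.6, 32.1 and 38.0 CPM in PBS 1, 2 and 3. Oxt, the hypothalamic hormone oxytocin, was at 0.245, 0.166 and 1.07 CPM in TUG469 + 6-OHDA libraries, at 0.23, 0.114 and 0.459 CPM in 6-OHDA libraries, and at 33.8, 0.593 and 18.3 CPM in PBS 1, 2 and 3. TUG469 + 6-OHDA 1 therefore carried serotonergic RNA that the other two of its group nearly lacked, and PBS 1 and PBS 3 carried hypothalamic RNA that PBS 2 nearly lacked.

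Against PBS, 364 of 19686 genes passed an adjusted p of 0.05 by edgeR's quasi-likelihood test with Benjamini-Hochberg adjustment, 1.85% of those tested. Of these, 79 were higher in TUG469 + 6-OHDA libraries (0.401% of genes tested) and 285 were lower (1.45%). Most changes were small. The median absolute log2 change of the called genes was 0.38, and 14 of the higher and 13 of the lower genes differed by at least 2-fold. The library values of all 364 called genes separated the groups without overlap, which 24% of all genes tested also did. At an unadjusted p of 0.05, 3881 genes passed, 19.7% of those tested. In the authors' deposited table, 1505 of 15623 genes with an adjusted p passed 0.05 in the same comparison, 501 higher and 1004 lower.

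Called genes differed in length by direction. Length here is the gene length that the deposited counts and FPKM values share. Genes called lower had a median length of 8114 bases and genes called higher had one of 2321 bases, while all genes tested had a median of 3329.5 bases. When all genes were ranked by length, the median log2 change was 0.12 in the shortest of 5 equal classes and −0.12 in the longest, and 208 of the 285 lower genes were in the longest class. With the trend of each library against length removed, 56 genes were called, 20 higher and 36 lower, and all 56 were among the 364. With upper-quartile scaling, 63 genes were higher and 83 lower, and with limma on log2(FPKM + 1), 41 were higher and 52 lower. Why change went with length was not tested.

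**Figure D1:**
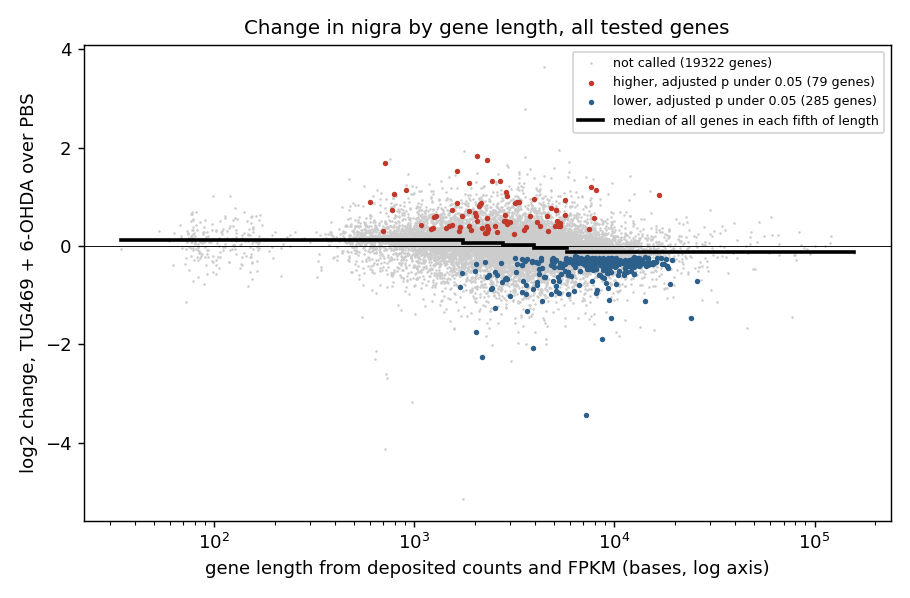
Log2 change in nigra, TUG469 + 6-OHDA over PBS, against gene length on a log axis for 19686 genes, with the 79 higher calls in red, the 285 lower calls in blue, all other genes in grey, and black bars for the median of each length class of equal gene number. Blue points gather to the right, where the longest class has a median of −0.12, and red points lie mainly in the middle and left.

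The number of calls rested on single libraries. It was 8 without PBS 1, 9 without TUG469 + 6-OHDA 2, 83 without TUG469 + 6-OHDA 1, 166 without PBS 2 and 527 without PBS 3. Leaving out 6-OHDA 2, 3 or 4 gave 147, 186 and 165. These libraries are outside the comparison but enter the filter on low counts, the scaling and the estimate of the spread. Only 7 genes were called in each of the 9 fits that left out a nigra library, namely Slc6a3, Megf9, Zhx3, Paqr8, Cbl, Tmod1 and Tmem125. All but Tmem125 were also called under each of the 10 other settings tried. Each of the 364 genes that a setting tested kept its direction in it.

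Several dopamine neuron transcripts were low in TUG469 + 6-OHDA libraries. Slc6a3, the dopamine transporter (gene 13162, chromosome 13, 73536128 to 73578672 on GRCm38), had 12.3, 16.8 and 11.8 CPM in TUG469 + 6-OHDA 1, 2 and 4, 66.8, 44.6 and 52.5 CPM in 6-OHDA 2, 3 and 4, and 70.1, 53.3 and 49.1 CPM in PBS 1, 2 and 3. All 3 TUG469 + 6-OHDA libraries were below every library of both other groups. The log2 change against PBS was −2.08 (SE 0.192, adjusted p = 0.00407 by edgeR), which left 0.237 of the PBS level. It was the only gene that also passed against 6-OHDA libraries (log2 change −2.0, SE 0.192, adjusted p = 0.0203 by edgeR), where 0.00508% of genes passed. Against 6-OHDA libraries the call of Slc6a3 was lost without 6-OHDA 2, 6-OHDA 4, TUG469 + 6-OHDA 1 or TUG469 + 6-OHDA 4. It was also lost with only the groups compared in the fit and with limma on log2(FPKM + 1). The libraries labelled 6-OHDA did not differ from PBS beyond the spread for this gene (log2 change −0.074, adjusted p = 0.877 by edgeR). Since a lesion marker was low in the group labelled with both agents and not in the group labelled 6-OHDA, groups are named here by their labels. An exchange of these 2 labels was not tested, and it would make this comparison one of 6-OHDA without TUG469 against PBS.

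Th encodes tyrosine hydroxylase, which sets the pace of dopamine production (gene 21823, chromosome 7, 142892779 to 142899995). It had 17.9, 20.8 and 12.6 CPM in TUG469 + 6-OHDA libraries, 61.5, 42.6 and 50.1 CPM in 6-OHDA libraries and 38.4, 25.4 and 35.6 CPM in PBS libraries. The TUG469 + 6-OHDA values lay below all others, but the change against PBS just missed the threshold (log2 change −0.96, SE 0.207, adjusted p = 0.0505 by edgeR). Chrna6, a nicotinic receptor subunit enriched in dopamine neurons (chromosome 8, 27403212 to 27413944), had 8.32, 10.2 and 7.91 CPM in TUG469 + 6-OHDA libraries and 14.4, 12.9 and 12.7 CPM in PBS libraries (log2 change −0.60, adjusted p = 0.0605 by edgeR). Ret, the signalling receptor for GDNF family ligands, had 52.6, 49.6 and 45.2 CPM in TUG469 + 6-OHDA libraries and 73.4, 60.0 and 81.0 CPM in PBS libraries (log2 change −0.54, adjusted p = 0.0524 by edgeR). Ntsr1, the neurotensin receptor, had a log2 change of −0.99 (adjusted p = 0.0772) and Kcnj6, the potassium channel GIRK2, one of −0.46 (adjusted p = 0.0547), both by edgeR and both without overlap between the groups. None of these 5 genes passed the threshold.

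**Figure D2:**
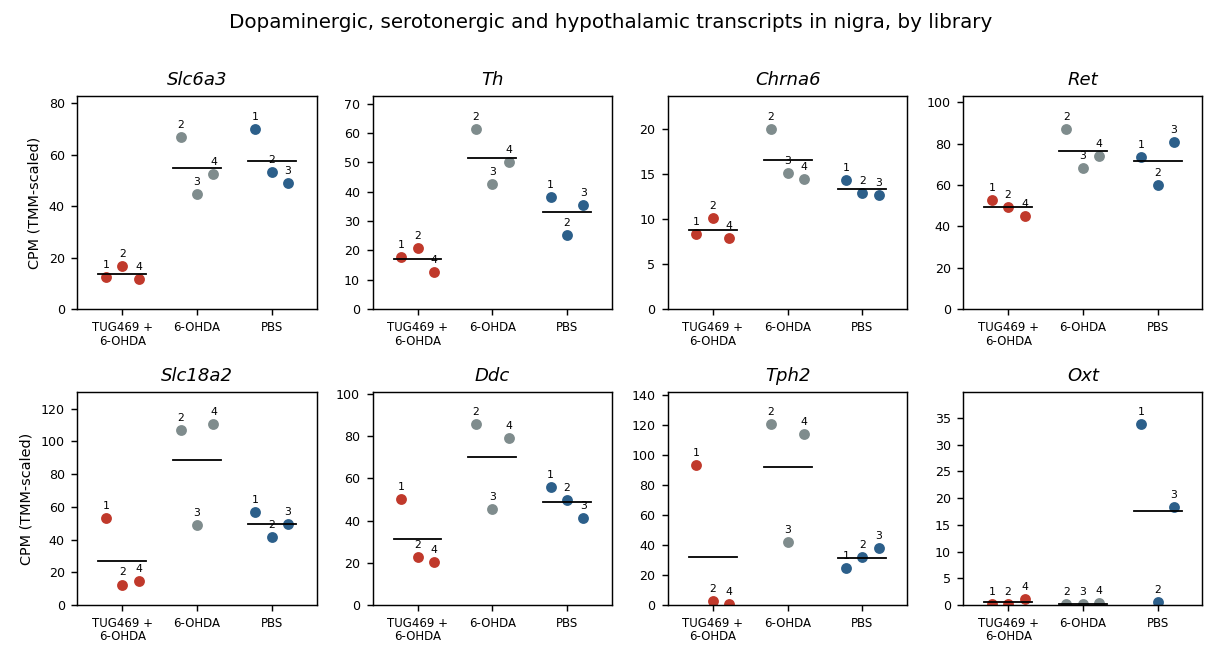
CPM by library for 8 genes in nigra, with points numbered by replicate, bars at the group mean of 3 libraries, and TUG469 + 6-OHDA in red, 6-OHDA in grey and PBS in blue. Slc6a3, Th, Chrna6 and Ret are low in all 3 TUG469 + 6-OHDA libraries, Slc18a2 and Ddc are high in TUG469 + 6-OHDA 1 where Tph2 is high too, and Oxt is seen mainly in PBS 1 and PBS 3.

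Of 26 dopamine neuron genes, 22 had a log2 change below 0 and 4 above, with a median of −0.50, against a median of 0.0087 over all genes tested. Slc6a3 was the only call, where 1.45% of all genes were called lower. Of the 26, 10 were lower without overlap, where 12.3% of all genes were. Genes that serotonin neurons also use showed another order of libraries. Slc18a2, the vesicular monoamine transporter (chromosome 19, 59260878 to 59296012), had 53.3, 12.6 and 14.6 CPM in TUG469 + 6-OHDA 1, 2 and 4 and 56.8, 41.5 and 49.6 CPM in PBS libraries. Ddc, which makes dopamine and serotonin from their amino acid precursors, had 50.3, 22.7 and 20.4 CPM in TUG469 + 6-OHDA 1, 2 and 4 and 55.9, 49.6 and 41.4 CPM in PBS libraries. For both genes TUG469 + 6-OHDA 1 overlapped the PBS range while the other two libraries lay below it, and the changes did not pass (log2 −0.88 and −0.65, adjusted p = 0.358 and 0.308 by edgeR). Slc10a4, a vesicular protein of monoamine neurons, showed the same order, with 14.9, 4.49 and 4.35 CPM in TUG469 + 6-OHDA libraries and 12.8, 11.2 and 12.8 CPM in PBS libraries. Tph2 and the serotonin transporter Slc6a4 were high in the same TUG469 + 6-OHDA library (Slc6a4 at 69.8, 1.09 and 0.271 CPM, and at 18.2, 24.7 and 28.8 CPM in PBS libraries). Without that library, the log2 change of Slc18a2 was the lowest of its 9 left-out fits, at −1.86, and that of Ddc was −1.18. The part of raphe tissue in these values was not tested.

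Other dopaminergic genes were not called either, and they differed in direction. Aldh1a1, an aldehyde dehydrogenase of ventral nigral neurons, had 193, 160 and 137 CPM in TUG469 + 6-OHDA libraries and 157, 174 and 191 CPM in PBS libraries (log2 change −0.091, adjusted p = 0.702 by edgeR). Nr4a2 (NURR1), a transcription factor that maintains dopamine neurons, had 7.24, 7.54 and 14.8 CPM in TUG469 + 6-OHDA 1, 2 and 4 and 17.6, 8.10 and 17.6 CPM in PBS 1, 2 and 3, so that 1 library of each group lay within the range of the other. Pitx3, a transcription factor of midbrain dopamine neurons, was scarce, with 0.298, 0.381 and 0.304 CPM in TUG469 + 6-OHDA libraries and 0.62, 0.445 and 0.547 CPM in PBS libraries (log2 change −0.71, adjusted p = 0.143 by edgeR), lower in all 3 TUG469 + 6-OHDA libraries. En1 and En2, homeobox genes of the midbrain, had log2 changes of 0.33 and 0.60 with overlapping groups.

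The smallest adjusted p of the whole comparison was that of Megf9, a membrane protein with EGF-like repeats that is made in the nervous system (gene 230316, chromosome 4, 70431927 to 70534928). It had 32.6, 31.4 and 30.9 CPM in TUG469 + 6-OHDA libraries, 39.0, 39.9 and 35.7 CPM in 6-OHDA libraries and 63.0, 61.0 and 58.3 CPM in PBS libraries. Each group kept a narrow range of its own, with PBS highest and TUG469 + 6-OHDA lowest. The log2 change against PBS was −0.94 (SE 0.0606, adjusted p = 0.000459 by edgeR), and the 6-OHDA libraries, compared with the same PBS libraries, also passed (log2 change −0.67, adjusted p = 0.0112 by edgeR). Zhx3, a zinc finger and homeobox repressor (chromosome 2, 160770447 to 160872990), had 24.6, 22.9 and 21.6 CPM in TUG469 + 6-OHDA libraries and 41.9, 42.3 and 38.0 CPM in PBS libraries (log2 change −0.82, SE 0.0737, adjusted p = 0.00407 by edgeR). Paqr8, a membrane progesterone receptor (chromosome 1, 20890548 to 20939650), had 230, 215 and 231 CPM in TUG469 + 6-OHDA libraries, 297, 310 and 334 CPM in 6-OHDA libraries and 352, 353 and 332 CPM in PBS libraries (log2 change −0.62 against PBS, SE 0.0587, adjusted p = 0.00407 by edgeR). Cbl, a ubiquitin ligase that ends receptor tyrosine kinase signalling, fell to 73.8, 71.4 and 78.4 CPM in TUG469 + 6-OHDA libraries, against 107, 108 and 105 CPM in PBS libraries (log2 change −0.52). Cbl, with a length of 12166 bases, is among the longest genes, and its change was −0.34 with the length trend removed (adjusted p = 0.0283 by edgeR). Arfgef3, a member of the brefeldin-inhibited exchange factor family, fell to 31.2, 27.0 and 29.0 CPM in TUG469 + 6-OHDA libraries, against 58.7, 47.7 and 51.9 CPM in PBS libraries.

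Further falls of about 2-fold or more were found in genes of varied function. Oprm1, the mu opioid receptor (chromosome 10, 6758593 to 7038209), had 3.01, 2.12 and 2.77 CPM in TUG469 + 6-OHDA libraries, 3.94, 3.13 and 2.98 CPM in 6-OHDA libraries and 6.61, 5.17 and 7.31 CPM in PBS libraries (log2 change −1.27, SE 0.188, adjusted p = 0.0184 by edgeR). The lowest PBS library lay well above the highest TUG469 + 6-OHDA library, and the gene was also called with the length trend removed (adjusted p = 0.0283 by edgeR). Lnpep, the insulin-regulated aminopeptidase, fell to 19.9, 15.4 and 18.2 CPM in TUG469 + 6-OHDA libraries, against 37.2, 33.7 and 33.9 CPM in PBS libraries. Fbxw23, an F-box protein, fell to 1.09, 0.813 and 0.761 CPM, against 2.65, 3.28 and 2.97 CPM in PBS libraries. Ccdc3 fell to 3.56, 3.88 and 4.02 CPM, against 8.47, 10.4 and 6.20 CPM in PBS libraries. Zbtb20, a zinc finger repressor (log2 change −1.46), and Fam167a (log2 change −0.99) were called as well, but not with the length trend removed (adjusted p = 0.0906 and 0.0974 by edgeR).

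Genes induced by glucocorticoid hormone were low as a group. All 15 members of the list had a log2 change below 0, with a median of −0.59, and 3 passed, all lower, where 1.45% of all genes tested were called lower. Plin4, a lipid droplet coat protein (chromosome 17, 56100587 to 56109948), had 5.80, 7.48 and 7.46 CPM in TUG469 + 6-OHDA libraries, 22.4, 33.5 and 71.9 CPM in 6-OHDA libraries and 82.2, 121 and 21.2 CPM in PBS 1, 2 and 3. Its log2 change of −3.43 (SE 0.609, adjusted p = 0.0308 by edgeR) was the largest fall among called genes. Cdkn1a, the cell cycle inhibitor p21 (chromosome 17, 29090979 to 29100722), had 6.75, 7.495 and 8.93 CPM in TUG469 + 6-OHDA libraries, 16.5, 18.9 and 31.4 CPM in 6-OHDA libraries and 34.8, 58.8 and 18.1 CPM in PBS libraries (log2 change −2.27, SE 0.388, adjusted p = 0.027 by edgeR). In both genes the 3 TUG469 + 6-OHDA libraries were close together while PBS libraries spread widely, with PBS 3 lowest and PBS 2 highest. Zbtb16, the transcription factor PLZF, had 17.98, 19.9 and 16.7 CPM in TUG469 + 6-OHDA libraries and 68.4, 103 and 30.7 CPM in PBS libraries (log2 change −1.89, adjusted p = 0.0467 by edgeR). With the length trend removed Cdkn1a was the only call of the list (adjusted p = 0.0495 by edgeR), and Plin4 and Zbtb16 had adjusted p = 0.0695 and 0.104 by edgeR.

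Fkbp5, a co-chaperone of the glucocorticoid receptor, had 19.4, 20.7 and 21.9 CPM in TUG469 + 6-OHDA libraries and 55.0, 89.5 and 28.0 CPM in PBS libraries, again with PBS 3 lowest, and just missed the threshold (log2 change −1.47, adjusted p = 0.0547 by edgeR). Of the 15 genes, 5 were lower without overlap, as were 12.3% of all genes tested, and in the other 10 the groups overlapped. Sgk1, a kinase induced by glucocorticoids, had 38.9, 54.4 and 157 CPM in TUG469 + 6-OHDA 1, 2 and 4 and 260, 290 and 50.2 CPM in PBS 1, 2 and 3, so that PBS 3 lay within the TUG469 + 6-OHDA range. Over the whole list the mean log2 level relative to the PBS mean was −1.24, −0.99 and −0.72 in TUG469 + 6-OHDA 1, 2 and 4, −0.54, −0.25 and 0.19 in 6-OHDA 2, 3 and 4, and 0.25, 0.57 and −0.82 in PBS 1, 2 and 3. The level of PBS 3 was thus inside the TUG469 + 6-OHDA range. Without PBS 3 the list's median log2 change was −1.0, and without PBS 2 it was −0.46. The part of stress or hour of tissue collection in these levels was not tested. Fam107a, an actin-binding protein also known to be induced by glucocorticoids and not in the list, fell to 149, 153 and 177 CPM in TUG469 + 6-OHDA libraries, against 368, 312 and 268 CPM in PBS libraries (log2 change −0.99, SE 0.134, adjusted p = 0.0151 by edgeR).

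Chaperones and sensors of the endoplasmic reticulum were lower too. These proteins fold secreted and membrane proteins, and their genes are raised together by the unfolded protein response through the transcription factors ATF6 and XBP1. Of 18 genes, 16 had a log2 change below 0, the median was −0.30, and 4 were called, all lower, where 1.45% of all genes were called lower. Many of these genes carry in their promoter the endoplasmic reticulum stress element, searched here as CCAAT and CCACG with 9 bases of any kind between them, on both strands of the RefSeq promoter window (250 bases before to 50 after the start site, GRCm38.p6). It was present in 6 of the 16 list genes that have a promoter entry, 37.5%, and in 0.137% of all 27025 genes with one. The promoters of Hspa5 and Dnajc3 are shown because both genes were called and both hold the element, whose fixed bases are in capitals. They lie at chr2:34771840-34772139 and chr14:118937682-118937981, both on the plus strand, and the element begins 65 and 105 bases before the start site.
Hspa5: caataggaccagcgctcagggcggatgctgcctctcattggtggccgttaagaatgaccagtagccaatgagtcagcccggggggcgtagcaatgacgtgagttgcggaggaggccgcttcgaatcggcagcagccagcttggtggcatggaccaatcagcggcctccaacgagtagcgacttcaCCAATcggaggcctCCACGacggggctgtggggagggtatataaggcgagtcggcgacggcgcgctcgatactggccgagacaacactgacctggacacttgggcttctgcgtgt
Dnajc3: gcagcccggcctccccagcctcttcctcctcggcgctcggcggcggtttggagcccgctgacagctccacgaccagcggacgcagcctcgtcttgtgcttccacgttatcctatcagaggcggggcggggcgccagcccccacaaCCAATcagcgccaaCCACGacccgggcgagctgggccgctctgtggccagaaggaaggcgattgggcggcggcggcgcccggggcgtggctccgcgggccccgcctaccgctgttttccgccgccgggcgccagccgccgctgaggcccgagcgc

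The elements of the other four genes are given for comparison as they read on the strand of the gene, from Hsp90b1 (chromosome 10, with 2 elements), Pdia6 (chromosome 12), Calr (chromosome 8) and Creld2 (chromosome 15), where a reading with CGTGG first and ATTGG last is the element on the opposite strand. A match describes the sequence and was not tested as a site of binding.
Hsp90b1: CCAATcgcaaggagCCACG
Hsp90b1, second element: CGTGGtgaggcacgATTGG
Pdia6: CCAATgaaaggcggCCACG
Calr: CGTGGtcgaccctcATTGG
Creld2: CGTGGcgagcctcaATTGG

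Hspa5, the chaperone BiP (gene coordinates chromosome 2, 34772090 to 34776529), had 261, 226 and 260 CPM in TUG469 + 6-OHDA libraries, 377, 371 and 411 CPM in 6-OHDA libraries and 409, 306 and 467 CPM in PBS libraries (log2 change −0.66, SE 0.131, adjusted p = 0.0415 by edgeR). Dnajc3, a co-chaperone that restrains the kinase PERK (chromosome 14, 118937932 to 118981702), had 69.0, 64.1 and 68.7 CPM in TUG469 + 6-OHDA libraries, 89.4, 86.1 and 90.1 CPM in 6-OHDA libraries and 97.7, 90.4 and 104 CPM in PBS libraries (log2 change −0.54, SE 0.061, adjusted p = 0.00994 by edgeR). In both genes the TUG469 + 6-OHDA libraries were below all 6 others. Xbp1 itself (chromosome 11, 5520641 to 5525993) had 67.1, 64.2 and 70.1 CPM in TUG469 + 6-OHDA libraries and 103, 80.3 and 109 CPM in PBS libraries (log2 change −0.54, adjusted p = 0.0333 by edgeR). Pdia4, a protein disulfide isomerase (chromosome 6, 47796141 to 47813512), had 41.6, 37.1 and 37.6 CPM in TUG469 + 6-OHDA libraries and 62.0, 48.5 and 74.4 CPM in PBS libraries (log2 change −0.67, adjusted p = 0.0384 by edgeR). In these genes too the groups did not overlap, and PBS 2 was the lowest PBS library. With the length trend removed, Dnajc3 and Xbp1 were called (adjusted p = 0.0281 and 0.049 by edgeR), while Hspa5 and Pdia4 had adjusted p = 0.072 and 0.067.

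Among the genes with an element shown above, Creld2 had a log2 change of −0.53 (adjusted p = 0.0812 by edgeR), Pdia6 one of −0.33, Hsp90b1 one of −0.26 and Calr one of −0.13, and none of the 4 passed. Sdf2l1, a partner of BiP, had 9.69, 6.87 and 7.88 CPM in TUG469 + 6-OHDA libraries and 16.2, 9.53 and 22.5 CPM in PBS libraries (log2 change −0.98, adjusted p = 0.0812 by edgeR). Manf, a secreted protein of the endoplasmic reticulum known for protecting dopamine neurons, had 26.9, 24.8 and 28.0 CPM in TUG469 + 6-OHDA libraries and 42.7, 30.6 and 52.2 CPM in PBS libraries (log2 change −0.66, adjusted p = 0.0605 by edgeR). The transcription factors of the PERK arm were close to equal between groups, with log2 changes of 0.037 for Atf4 and −0.034 for Ddit3 (CHOP), neither of which passed. Over the list, the mean log2 level relative to the PBS mean was −0.26, −0.39 and −0.32 in TUG469 + 6-OHDA 1, 2 and 4, 0.011, −0.031 and 0.061 in 6-OHDA 2, 3 and 4, and 0.017, −0.23 and 0.21 in PBS 1, 2 and 3. The PBS libraries spread as widely as from −0.23 to 0.21, and PBS 2 came closest to the TUG469 + 6-OHDA libraries. Of 16 heat shock genes, 15 had a log2 change below 0 with a median of −0.20, and 0 passed by edgeR (7 at an unadjusted p of 0.05).

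**Figure D3:**
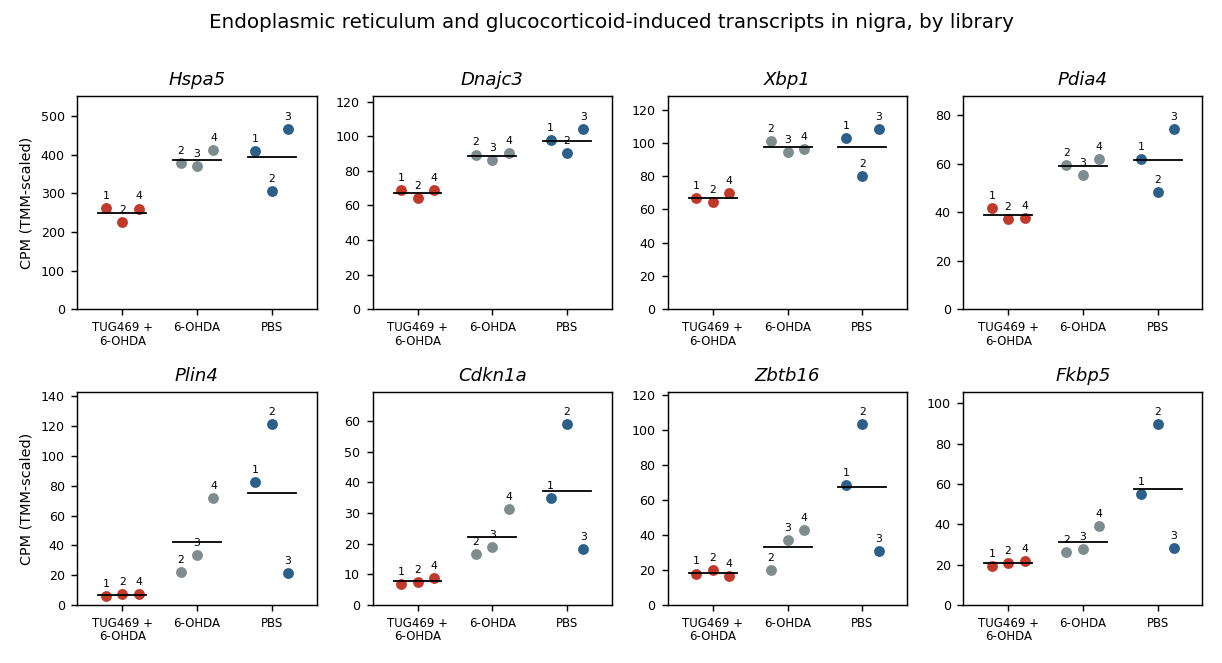
CPM by library for 4 endoplasmic reticulum genes (upper row) and 4 glucocorticoid-induced genes (lower row) in nigra, with points numbered by replicate and bars at the mean of 3 libraries. All 3 TUG469 + 6-OHDA libraries (red) lie below the PBS libraries (blue) in each panel, and PBS 3 is the lowest PBS library in the lower row but the highest in the upper row.

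Genes of mature oligodendrocytes, the cells that make myelin, were mostly higher in TUG469 + 6-OHDA libraries, with 2 calls. Opalin, a membrane glycoprotein of oligodendrocytes (chromosome 19, 41061959 to 41077113), had 48.5, 47.3 and 59.7 CPM in TUG469 + 6-OHDA libraries, 26.9, 28.6 and 19.9 CPM in 6-OHDA libraries and 18.2, 15.1 and 29.1 CPM in PBS libraries. All 3 TUG469 + 6-OHDA libraries were above the other 6, and the log2 change against PBS was 1.32 (SE 0.224, adjusted p = 0.027 by edgeR). Aspa, which splits N-acetylaspartate in oligodendrocytes (chromosome 11, 73304987 to 73326876), had 37.6, 33.3 and 43.3 CPM in TUG469 + 6-OHDA libraries and 22.97, 22.8 and 29.6 CPM in PBS libraries (log2 change 0.60, adjusted p = 0.0438 by edgeR). Of the 18 genes of the list, 16 had a log2 change above 0, with a median of 0.34, and these 2 were called, where 0.401% of all genes tested were called higher. The abundant myelin genes had small changes that did not pass. Mbp, myelin basic protein, had a log2 change of 0.24 (adjusted p = 0.28) and Mobp one of 0.044 (adjusted p = 0.851), both by edgeR. Mag, the myelin-associated glycoprotein, had 503, 470 and 561 CPM in TUG469 + 6-OHDA libraries and 357, 334 and 452 CPM in PBS libraries (log2 change 0.42, adjusted p = 0.0743 by edgeR).

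PBS 3 was again apart. The list's mean log2 level relative to the PBS mean was 0.36, 0.22 and 0.56 in TUG469 + 6-OHDA 1, 2 and 4, 0.28, 0.29 and 0.32 in 6-OHDA 2, 3 and 4, and −0.089, −0.20 and 0.29 in PBS 1, 2 and 3, so PBS 3 lay within the TUG469 + 6-OHDA range. The share of white matter in each dissection was not tested. Pllp, plasmolipin, a proteolipid of myelin that was not in the list (chromosome 8, 94674895 to 94696242), rose to 107, 103 and 119 CPM in TUG469 + 6-OHDA libraries, against 57.2, 54.6 and 69.9 CPM in PBS libraries (log2 change 0.86, SE 0.0953, adjusted p = 0.00916 by edgeR). Tmem98, a membrane protein that binds the oligodendrocyte transcription factor MYRF, rose to 17.5, 15.4 and 17.6 CPM, against 7.98, 8.32 and 11.3 CPM in PBS libraries (log2 change 0.87, adjusted p = 0.0171 by edgeR). Both kept their call with the length trend removed (adjusted p = 0.0216 and 0.0399 by edgeR), but the list itself then held 0 calls, with adjusted p = 0.0618 for Opalin and 0.12 for Aspa by edgeR. Oligodendrocyte precursors did not show the same direction. Gpr17, a receptor of newly forming oligodendrocytes, fell to 64.8, 57.2 and 78.8 CPM in TUG469 + 6-OHDA libraries, against 104, 98.6 and 101 CPM in PBS libraries (log2 change −0.60, adjusted p = 0.0254 by edgeR). Ptprz1, a receptor phosphatase of precursors, fell by 0.29 on the log2 scale (adjusted p = 0.0367 by edgeR). With the length trend removed neither was called (adjusted p = 0.067 for Gpr17 and 0.13 for Ptprz1 by edgeR). The 15 precursor genes as a whole had a median of 0.045, with 8 above and 7 below 0.

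Other rises named by size or by p were of mixed function. Tmod1, tropomodulin, which caps actin filaments (chromosome 4, 46038940 to 46116032), had 36.2, 35.7 and 36.5 CPM in TUG469 + 6-OHDA libraries, 28.6, 31.8 and 27.3 CPM in 6-OHDA libraries and 17.1, 18.7 and 22.4 CPM in PBS libraries (log2 change 0.90, SE 0.098, adjusted p = 0.00916 by edgeR). Tmem125, a transmembrane protein (chromosome 4, 118540941 to 118544920), had 18.5, 17.7 and 19.3 CPM in TUG469 + 6-OHDA libraries, 13.6, 13.4 and 14.4 CPM in 6-OHDA libraries and 10.1, 9.82 and 11.5 CPM in PBS libraries (log2 change 0.82, SE 0.0811, adjusted p = 0.00462 by edgeR). In both genes the 3 groups formed 3 separate ranges with TUG469 + 6-OHDA highest. Ppp1r14a, an inhibitor of myosin phosphatase, rose to 18.98, 18.9 and 21.9 CPM in TUG469 + 6-OHDA libraries, against 10.9, 8.80 and 12.3 CPM in PBS libraries. Sgk2, a kinase of the SGK family, and Cyp3a13, a cytochrome P450, had log2 changes of 1.01 and 0.96 (adjusted p = 0.0185 and 0.0193 by edgeR). Ofd1, a protein of centrioles and cilia, rose to 32.2, 30.5 and 43.8 CPM in TUG469 + 6-OHDA libraries, against 15.7, 18.4 and 14.3 CPM in PBS libraries. The 6-OHDA libraries, at 19.2, 38.2 and 33.7 CPM, were all above the PBS range. Those at 38.2 and 33.7 CPM lay within the TUG469 + 6-OHDA range. Sfrp5, a secreted Wnt antagonist, Slc26a10 and Gkn3 rose by 0.87, 0.88 and 1.14 on the log2 scale, and none of the 3 was called with the length trend removed. AW047730 rose to 23.4, 23.9 and 23.3 CPM, against 15.1, 14.8 and 16.4 CPM in PBS libraries.

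Genes of cholesterol handling were mostly above 0 in log2 change. The SREBP pathway raises these genes together when sterols in the endoplasmic reticulum are low, and INSIG1 is both its target and its brake. Insig1 (chromosome 5, 28071412 to 28078662) had 104, 104 and 103 CPM in TUG469 + 6-OHDA libraries, 91.6, 83.4 and 92.3 CPM in 6-OHDA libraries and 73.9, 78.4 and 68.4 CPM in PBS libraries (log2 change 0.49, SE 0.0618, adjusted p = 0.015 by edgeR). The groups formed 3 separate ranges with TUG469 + 6-OHDA highest, and the call held with the length trend removed (adjusted p = 0.0221 by edgeR). Abca1, which exports cholesterol from cells (chromosome 4, 53030789 to 53159988), fell to 45.6, 47.4 and 51.9 CPM in TUG469 + 6-OHDA libraries, against 73.9, 80.0 and 55.6 CPM in PBS libraries (log2 change −0.53, adjusted p = 0.0489 by edgeR), but it is long (11614 bases) and had adjusted p = 0.187 by edgeR with the length trend removed. Of the 20 genes of the list, 17 had a log2 change above 0 with a median of 0.22, and 10 were higher without overlap, as were 11.7% of all genes. Enzymes of synthesis that came near the threshold did not pass it. Dhcr7 had a log2 change of 0.46 (adjusted p = 0.0506), Msmo1 one of 0.34 (adjusted p = 0.0505) and Hmgcs1 one of 0.31 (adjusted p = 0.0774), all by edgeR.

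**Figure D4:**
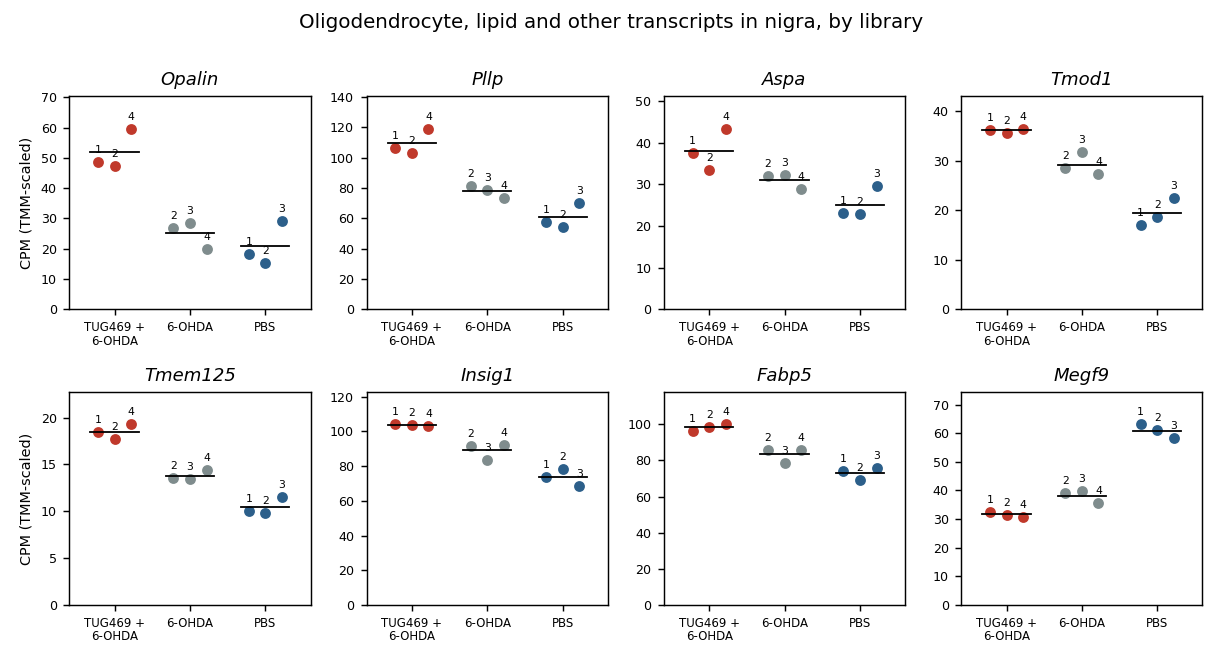
CPM by library for Opalin, Pllp, Aspa and Tmod1 (upper row) and for Tmem125, Insig1, Fabp5 and Megf9 (lower row) in nigra, with points numbered by replicate and bars at the mean of 3 libraries. TUG469 + 6-OHDA libraries (red) are highest in every panel but Megf9, where they are lowest, and 6-OHDA libraries (grey) lie mostly between them and PBS (blue).

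Ffar1, the receptor that TUG469 activates, is not among the genes of the nigra table and was not analysed here. Of 14 tested genes of fatty acid handling and its nuclear receptors, Fabp5 was the only call, where 0.401% of all genes were called higher. Fabp5, a fatty acid binding protein of brain (chromosome 3, 10012585 to 10016610), had 96.4, 98.5 and 99.9 CPM in TUG469 + 6-OHDA libraries, 85.7, 78.4 and 85.9 CPM in 6-OHDA libraries and 73.9, 69.2 and 76.0 CPM in PBS libraries (log2 change 0.43, SE 0.0558, adjusted p = 0.015 by edgeR). Its groups formed 3 separate ranges. The median log2 change of the 14 was −0.048. The nuclear receptors Ppara, Ppard and Pparg had log2 changes of −0.34, 0.048 and 0.036, and Cpt1a, the gate of mitochondrial fatty acid oxidation, had one of 0.072, none of which passed.

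No inflammasome gene passed. Of 15 tested members 0 were called by edgeR, with 4 at an unadjusted p of 0.05 (2 in each direction), and the median log2 change was 0.018. Nlrp3 (chromosome 11, 59541569 to 59566955) was scarce, with 0.456, 0.978 and 0.609 CPM in TUG469 + 6-OHDA libraries, 0.651, 0.665 and 0.374 CPM in 6-OHDA libraries and 0.852, 0.797 and 0.953 CPM in PBS libraries. The groups overlapped, and the log2 change was −0.35 (SE 0.318, adjusted p = 0.584 by edgeR). Pycard had 1.59, 1.19 and 1.251 CPM in TUG469 + 6-OHDA libraries and 1.03, 0.852 and 1.84 CPM in PBS libraries, and Casp1 had 0.648, 0.531 and 0.423 CPM in TUG469 + 6-OHDA libraries and 0.387, 0.649 and 0.635 CPM in PBS libraries. Their log2 changes of 0.12 and −0.065 were far within the spread, and their signs turned when single libraries were left out. Il18 was better measured, with 15.3, 15.5 and 18.4 CPM in TUG469 + 6-OHDA libraries and 14.5, 14.2 and 15.2 CPM in PBS libraries (log2 change 0.16, adjusted p = 0.333 by edgeR). P2rx7, the ATP receptor that triggers NLRP3, had 12.5, 11.7 and 14.4 CPM in TUG469 + 6-OHDA libraries and 8.39, 9.06 and 10.3 CPM in PBS libraries (log2 change 0.47, adjusted p = 0.105 by edgeR). Nlrp3 and Casp1 were below 1 CPM in all TUG469 + 6-OHDA and PBS libraries. Differences of this size may go undetected in such genes, which was not tested. Il1b was not analysed here.

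Genes of immune cells and their products held few calls in these libraries. Of 15 homeostatic and 16 activated microglia genes 0 were called by edgeR, with 2 and 3 at an unadjusted p of 0.05 and medians of 0.036 and 0.093. Aif1 (IBA1), the usual microglial marker, had 2.09, 1.81 and 3.47 CPM in TUG469 + 6-OHDA libraries and 1.94, 1.54 and 2.01 CPM in PBS libraries (log2 change 0.42, adjusted p = 0.36 by edgeR). Of 11 tested cytokine and chemokine genes only Il33 was called, where 0.401% of all genes tested were called higher. Il33 is an alarmin that oligodendrocytes and astrocytes make in the brain (chromosome 19, 29925113 to 29960718). It rose to 111, 93.5 and 104 CPM in TUG469 + 6-OHDA libraries, against 70.5, 73.1 and 82.4 CPM in PBS libraries (log2 change 0.45, adjusted p = 0.0462 by edgeR), and had adjusted p = 0.102 by edgeR with the length trend removed. Of 14 class I antigen presentation genes 13 had a log2 change above 0 with a median of 0.25, and 0 passed. At an unadjusted p of 0.05 by edgeR 7 were higher, as were 1710 of all 19686 genes tested. The groups separated without overlap for 7 genes, all higher, as for 11.7% of all genes. With the length trend removed the median was 0.17. Of 25 interferon response genes 18 were above 0 with a median of 0.11, and 0 passed (2 at an unadjusted p of 0.05).

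Astrocyte genes leaned downward. Gjb6, connexin 30 of astrocyte gap junctions (chromosome 14, 57123301 to 57133611), had 58.7, 65.0 and 62.1 CPM in TUG469 + 6-OHDA libraries, 79.8, 87.2 and 97.1 CPM in 6-OHDA libraries and 102, 100 and 84.3 CPM in PBS libraries (log2 change −0.62, SE 0.0897, adjusted p = 0.0171 by edgeR). TUG469 + 6-OHDA libraries were below all 6 others, and the call held with the length trend removed. Slc4a4, the bicarbonate cotransporter of astrocytes (8632 bases), fell by 0.33 on the log2 scale (adjusted p = 0.0378 by edgeR), but its change was −0.20 with the length trend removed (adjusted p = 0.172 by edgeR). These were the 2 calls among 16 homeostatic astrocyte genes, where 1.45% of all genes were called lower, and the median of the 16 was −0.13. With the length trend removed that median was −0.067. Gfap, the filament protein that rises in reactive astrocytes, had 190, 178 and 231 CPM in TUG469 + 6-OHDA libraries and 227, 228 and 249 CPM in PBS libraries, with overlap and no call (log2 change −0.23, adjusted p = 0.201 by edgeR). Of 20 tested reactive astrocyte genes 15 had a log2 change below 0, and 0 passed (6 at an unadjusted p of 0.05, all lower). Their median was −0.16, and −0.17 with the length trend removed.

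Of 32 ion channel genes 25 had a log2 change below 0, with a median of −0.21, which moved to −0.094 with the length trend removed. Scn2a, a voltage-gated sodium channel (10073 bases), had 160, 162 and 162 CPM in TUG469 + 6-OHDA libraries and 240, 202 and 206 CPM in PBS libraries (log2 change −0.42, adjusted p = 0.0384 by edgeR). Kcnd3, an A-type potassium channel (8646 bases), fell by 0.32 on the log2 scale. Ntrk2, the receptor TrkB for brain-derived neurotrophic factor (8719 bases), had 646, 642 and 595 CPM in TUG469 + 6-OHDA libraries and 931, 908 and 792 CPM in PBS libraries (log2 change −0.48, SE 0.0707, adjusted p = 0.0178 by edgeR). Pde10a, a phosphodiesterase of striatal projection neurons (8822 bases), had 52.7, 56.0 and 55.2 CPM in TUG469 + 6-OHDA libraries and 103, 83.1 and 71.7 CPM in PBS libraries (log2 change −0.65, adjusted p = 0.0262 by edgeR). With the length trend removed none of these 4 genes passed, with adjusted p of 0.144, 0.155, 0.0749 and 0.0832 by edgeR. Vps13c, a lipid transport protein mutated in a familial form of Parkinson's disease (16329 bases), was called with a log2 change of −0.24, which moved to −0.030 with the length trend removed. Slc7a11, the cystine transporter of the antioxidant response (10387 bases), and Fosl2, a member of the AP-1 family, were called lower too (log2 change −0.60 and −0.80) and not with the length trend removed. Dbp, an output gene of the circadian clock, had 66.1, 87.3 and 78.1 CPM in TUG469 + 6-OHDA libraries and 49.7, 52.4 and 40.2 CPM in PBS libraries (log2 change 0.70, adjusted p = 0.0285 by edgeR). It was the only call among 16 clock genes, where 0.401% of all genes were called higher. With the length trend removed Dbp had adjusted p = 0.0825 by edgeR.

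The lists of oxidative phosphorylation and ribosomal protein genes moved slightly upward without any call. All 38 oxidative phosphorylation genes had a log2 change above 0, with a median of 0.15, and 30 were higher without overlap. All 38 ribosomal protein genes were above 0 as well, with a median of 0.13, and 21 were higher without overlap, as were 11.7% of all genes. By edgeR 0 genes of either list passed. At an unadjusted p of 0.05, 22 and 14 were higher and 0 lower, where 1710 of all 19686 genes tested were higher. With the length trend removed the medians were 0.026 and 0.0025. Cox5a, a subunit of cytochrome c oxidase, came nearest, with 102, 104 and 99.3 CPM in TUG469 + 6-OHDA libraries and 80.7, 82.7 and 88.0 CPM in PBS libraries (log2 change 0.28, adjusted p = 0.0505 by edgeR), and adjusted p = 0.266 by edgeR with the length trend removed.

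**Figure D5:**
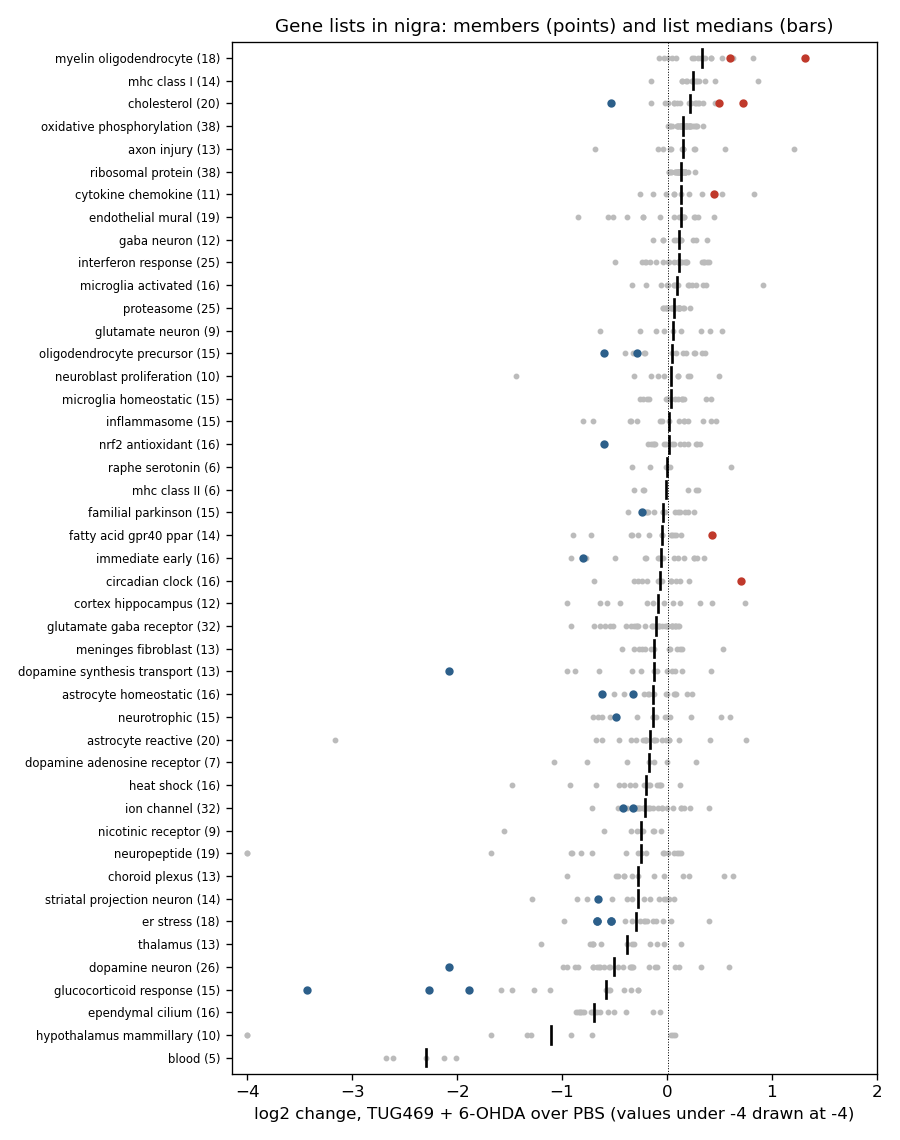
Log2 change in nigra, TUG469 + 6-OHDA over PBS, for each tested member of 45 gene lists (points, blue for lower calls, red for higher calls, grey for the rest) with list medians as bars and the number of tested members in parentheses. Medians run from −2.30 for blood to 0.34 for mature oligodendrocytes, and 17 of the lists hold a member that passed.

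Transcripts of cells and regions other than nigral neurons and glia were measured for the same libraries. The 5 tested genes of red blood cells were all lower, with a median log2 change of −2.30, and Hbb-bt, a beta globin, had 0.981, 1.77 and 0.271 CPM in TUG469 + 6-OHDA libraries and 5.71, 3.65 and 9.20 CPM in PBS libraries (adjusted p = 0.0774 by edgeR). All 16 genes of ciliated ependymal cells were below 0 with a median of −0.70, and 10 were lower without overlap, as were 12.3% of all genes. Of 13 thalamic genes 12 were below 0 with a median of −0.38, and 0 were lower without overlap. In none of these 3 lists did a gene pass by edgeR, with 5, 7 and 1 genes at an unadjusted p of 0.05. Their part in the calls above was not tested.

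Compared with 6-OHDA libraries, the TUG469 + 6-OHDA libraries differed in Slc6a3 alone by edgeR, with 1615 genes at an unadjusted p of 0.05 (8.2% of 19686). DESeq2 called 97 genes in the same comparison. The 2 comparisons share the TUG469 + 6-OHDA libraries, so their values are set side by side and not correlated. Against 6-OHDA libraries the log2 changes were −0.48 for Paqr8 (adjusted p = 0.0989), −0.40 for Dnajc3, −0.54 for Xbp1, −0.51 for Gjb6 and 1.04 for Opalin, and against PBS libraries they were −0.62, −0.54, −0.54, −0.62 and 1.32 in the same order. For Lnpep, Scn2a and Abca1 the log2 changes against 6-OHDA libraries were −0.21, −0.019 and 0.094, and against PBS libraries −0.97, −0.42 and −0.53.

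In striatum, 0 of 19115 genes passed when TUG469 + 6-OHDA libraries were compared with PBS libraries by edgeR. The difference between the nigral and the striatal change was tested for 18749 genes in 1 fit of all 18 libraries, and 0 passed by edgeR, with 1892 at an unadjusted p of 0.05 (DESeq2 called 62). That fit treated nigra and striatum libraries of the same number as independent, and a fit with the group and number as a block also called 0 genes, with 2127 at an unadjusted p of 0.05. A change called in nigra is therefore not shown to differ from that in striatum. Megf9 and C4b had the lowest adjusted p of this test, 0.0514 by edgeR for both. Megf9 had a log2 change of −0.94 in nigra and 0.011 in striatum (difference −0.96). Some changes had similar size in both tissues. Plin4 had a log2 change of −3.43 in nigra and −3.92 in striatum, Oprm1 had −1.27 and −1.46, Lnpep had −0.97 and −0.87, and Insig1 had 0.49 and 0.45. Slc6a3 and Chrna6 were not tested in striatum.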

How the data were processed

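RNA was extracted with a Qiagen RNeasy mini kit and libraries were made with a TruSeq Stranded mRNA kit, per the labels' protocols. The submitters' processing notes name FastQC 0.11.7, Trim Galore 0.38, STAR 2.7.3a, Cufflinks and the build GRCm38. The sources used here do not give the strand setting of the counting, so overlapping and antisense genes cannot be told apart. The deposited values are raw read counts for each gene in each library, with the authors' FPKM values beside them, per the file headers. The authors' fold change (a signed score) and adjusted p-value columns in the deposited table were used only to count their calls.

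Counts of the 9 nigra libraries were fitted together with edgeR 4.0.16 in R 4.3.3 (TMM scaling, filterByExpr at its count limit 10 and total limit 15, quasi-likelihood F test, Benjamini-Hochberg threshold 0.05). Each standard error is the log2 change divided by the root of its F statistic. The difference between tissues came from 1 fit of 18 libraries. DESeq2 1.42.0 and limma 3.58.1, with log2(FPKM + 1) or voom on the counts for the latter, gave alternatives. The length trend was removed per library with a loess of span 0.4. List levels use log2(CPM + 0.5). Scripts were tested on simulated data. Coordinates are from RefSeq GRCm38.p6, which matched 20844 of 20897 IDs. Genes were named by size and by p among calls, and from 45 lists of 733 genes. The comparison, the lists and the rule were chosen with earlier results of these data known. Replicates of a group differed by more than sampling noise. Some genes taken by the rule or the lists are not reported here.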

Additional observations from a re-analysis of the deposited data

How the results depend on the processing

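The 364 calls against PBS (79 higher, 285 lower) became 1560 with DESeq2 (491 higher, 1069 lower), 146 with upper-quartile factors (83 lower), 39 with only the groups compared in the fit (11 higher, 28 lower), 56 with the length trend removed (20 higher, 36 lower) and 93 with limma on log2(FPKM + 1) (41 higher, 52 lower). Another edgeR scaling (RLE) gave 363 calls and limma-voom on the counts gave 355. Without a filter on low counts 50 were higher. Leaving out 1 library gave 8 to 527 calls, 2 to 184 of them higher and 5 to 343 lower. Against 6-OHDA libraries the 1 call became 97 with DESeq2, 0 with only the groups compared, 0 with limma on log2(FPKM + 1) and 0 to 4 with 1 library left out. It stayed at 1 with limma-voom. The 27 called list genes became 121 with DESeq2, 16 with upper-quartile factors, 7 with only the groups compared, 8 with the length trend removed, 9 with limma on log2(FPKM + 1) and 1 to 56 with 1 library left out. They were 27 with RLE scaling and 25 with limma-voom. For the nigra minus striatum difference, 0 calls became 62 with DESeq2, 1 with upper-quartile factors, 2 with only the groups compared, 1 with limma on log2(FPKM + 1) and 0 to 6 with 1 library left out. With limma-voom the calls stayed at 0. The cause of these shifts was not tested.

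With the replicate block the calls were 13 against PBS (1 higher, 12 lower), 3 against 6-OHDA and 1 among list genes. TUG469 + 6-OHDA and PBS libraries share only the numbers 1 and 2, whose deviations from the group means correlated at −0.12 and 0.24 across genes. These values differ in sign and do not decide whether the numbers pair the nigra libraries. Between tissues, all 9 same-numbered pairs of 1 group correlated above 0 (0.016 to 0.218), 6 of them over 0.1, and 8 of 9 nigra libraries correlated best with their own number, a hint from the data that the labels do not state. The block left the nigra minus striatum calls at 0.

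Pycard (log2 change 0.12) ranged from −0.0897 to 0.518 with 1 library left out and turned to −0.0897 without PBS 2 and −0.0216 without TUG469 + 6-OHDA 1. Casp1 (−0.065) ranged from −0.263 to 0.0788 and turned to 0.0574 without PBS 2, 0.0395 without PBS 3 and 0.0788 without TUG469 + 6-OHDA 4. With 3 libraries a group, small changes in scarce genes may go undetected, which was not tested.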
